A study of Rattus norvegicus with 12 samples.

Results

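The genes described here are Nfe2l2, which codes for the transcription factor NRF2, and 9 genes that NRF2 is known to drive: Srxn1, Nqo1, Gclc, Gclm, Gsr, Ggct, Txnrd1, Txn1 and Osgin1. They were chosen by name, with earlier results of these data known, as the thiol, quinone and glutathione arm of the NRF2 response. Shares of all genes are therefore printed beside their counts only as a description. They make up 10 of the 16002 gene IDs used from the table. All 10 passed the filter on low counts, which kept 11398 genes for testing. Their mRNA was measured by bulk RNA sequencing of polyadenylated RNA in the established rat line H9C2, which derives from heart and has the character of a myoblast, in 3 groups of 4 libraries. The H/R + LITAF cells, of the genotype given as LITAF overexpression, carried a lentiviral vector that overexpresses LITAF, an endosomal and lysosomal membrane protein, and went through hypoxia in 1% oxygen for 8 h and reoxygenation for 2 h (H/R). The H/R cells, given as wild type, carried an empty lentiviral vector and went through the same hypoxia and reoxygenation. The control cells, also wild type, stayed in normal oxygen and carried no vector. All groups grew in DMEM with 10% fetal bovine serum and antibiotics. The H/R + LITAF and H/R groups both carried a lentiviral vector and had the same H/R, so LITAF overexpression is the labelled difference between them. Any other difference between the cells of these groups cannot be told apart from it. A comparison with control cannot tell the vector from H/R. The control columns also differ in make-up: all 72 gene IDs with conflicting rows conflict only there, and fewer of their values are not whole numbers (2.79 to 3.34%, against 11.1 to 12.3% in the other columns). Whether they were processed separately is not stated, and the part of this in the folds over control was not tested. The promoter of the vector is not named in the labels, which call the replicates biological and put all libraries in 1 batch. Separate cultures are not mentioned, so each p-value reflects only how far these libraries scatter.

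NRF2 is held low by KEAP1, a cysteine-rich adaptor that marks it for degradation. Oxidants and electrophiles modify KEAP1, NRF2 accumulates, pairs with a small MAF protein and binds antioxidant response elements (AREs) in its target genes. Much of this control acts on the NRF2 protein, which RNA counts do not show. The targets make glutathione and keep it reduced, reduce thioredoxin and peroxiredoxins, and detoxify quinones. In heart muscle this program is known for limiting oxidative damage when oxygen returns after ischaemia.

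Total counts were 17.2 to 18.4 M in the H/R + LITAF libraries, 16.9 to 18.1 M in the H/R libraries and 19.2 to 20.7 M in the control libraries. Litaf averaged 2338 ± 326 CPM in H/R + LITAF cells and 585 ± 30.0 CPM in H/R cells (SD, n = 4 each), which fits the vector labels. CPM are counts per M reads after scaling by the trimmed mean of M-values (TMM), and levels are never compared here between genes, since no transcript lengths were used. The myoblast label was checked against markers. In all libraries Myod1, a factor of the skeletal muscle lineage, stood at 75.7 CPM or more. The muscle cadherin Cdh15 stood at 363 CPM or more in all of them. Of 6 myoblast markers measured, 2 (Myf5 and Myf6) were under 1 CPM in every library. The cardiac markers Gata4, Hand2, Mef2c, Nkx2-5 and Tnnt2 were present in all libraries. Of 11 cardiomyocyte markers, 6 (Myh6, Myh7, Nppa, Tnni3, Ryr2 and Tbx5) were under 1 CPM in every library. The 11 together summed to 238 to 314 CPM in H/R + LITAF, 157 to 199.7 CPM in H/R and 335 to 626 CPM in control libraries. Endothelial markers summed to at most 1.39 CPM in any library. Macrophage markers summed to 10.5 to 11.8 CPM in H/R + LITAF libraries, 8.79 to 10.7 CPM in H/R libraries and 13.1 to 21.8 CPM in control libraries, most of it Cd14, and the leukocyte marker Ptprc did not exceed 0.17 CPM. H/R + LITAF library 1 often stood apart from the other 3 of its group, for the genes described here and over all genes tested. It had the highest of the 4 values for 8 of the 10 and the lowest for Txn1. Over all genes tested it was the highest for 36.7% and the lowest for 39.5%. Leaving it out raised the number of genes called between H/R + LITAF and H/R from 556 to 1285.

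Because NRF2 acts through AREs, the promoter windows of these genes were searched for the letters of the ARE core and of the related AP-1 site, which Jun and Fos proteins bind, and the windows that hold a match are printed. The windows are from RefSeq, build GRCr8, and run from 250 bases before to 50 bases after an annotated start. Of the 10 genes, 9 had a window and Txnrd1 had 2. Both strands were searched. The ARE core, TGACNNNGC, was in 3 of the 10 windows, against 12.1% of all 33469 windows and 14.3% of those of the genes tested. The AP-1 site, TGANTCA, which was added after the Srxn1 window had been seen, was in 1 of the 10, against 7.33% of all windows and 4.89% of those of the genes tested. The 4 windows with a match are shown 5′ to 3′ on the strand of the gene, with the match in capitals. Nfe2l2 lies at chr3:81028950-81029249 on the minus strand and Srxn1 at chr3:161064562-161064861 on the plus strand. Gclm lies at chr2:213031885-213032184 on the plus strand and the second Txnrd1 window at chr7:22755855-22756154 on the minus strand.
Nfe2l2: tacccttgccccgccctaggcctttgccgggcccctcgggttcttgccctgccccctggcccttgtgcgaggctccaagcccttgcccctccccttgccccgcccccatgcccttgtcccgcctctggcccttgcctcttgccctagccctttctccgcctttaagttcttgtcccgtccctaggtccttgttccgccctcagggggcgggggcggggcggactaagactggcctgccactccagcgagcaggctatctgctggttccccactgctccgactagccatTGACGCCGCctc
Srxn1: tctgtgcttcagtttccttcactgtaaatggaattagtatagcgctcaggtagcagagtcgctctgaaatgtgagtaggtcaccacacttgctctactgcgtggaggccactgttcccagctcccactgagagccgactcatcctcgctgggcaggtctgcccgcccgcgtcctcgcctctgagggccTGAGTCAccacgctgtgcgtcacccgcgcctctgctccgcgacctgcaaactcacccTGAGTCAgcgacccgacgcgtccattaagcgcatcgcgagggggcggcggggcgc
Gclm: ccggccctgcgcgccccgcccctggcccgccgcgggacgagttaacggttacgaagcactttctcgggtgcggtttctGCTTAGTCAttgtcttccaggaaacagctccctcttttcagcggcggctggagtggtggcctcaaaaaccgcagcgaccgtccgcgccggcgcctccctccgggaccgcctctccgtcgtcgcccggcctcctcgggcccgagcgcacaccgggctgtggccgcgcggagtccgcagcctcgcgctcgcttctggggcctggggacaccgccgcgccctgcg
Txnrd1: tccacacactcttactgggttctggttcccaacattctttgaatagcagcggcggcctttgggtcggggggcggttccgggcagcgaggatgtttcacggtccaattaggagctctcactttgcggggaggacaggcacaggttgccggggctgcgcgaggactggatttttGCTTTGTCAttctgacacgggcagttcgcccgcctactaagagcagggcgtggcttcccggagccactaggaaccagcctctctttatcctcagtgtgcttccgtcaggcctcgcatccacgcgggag
The Srxn1 window holds the AP-1 letters at 2 places, which begin 62 and 5 bases before the start. Gclm and Txnrd1 hold the ARE core on the opposite strand, at 172 and 78 bases before their starts, and Nfe2l2 holds it 38 bases after its start. A stretch can match both motifs at once, and none of the matches printed does. A match is only a description of the letters, and windows without one may have elements farther away.

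Between the vectors, Srxn1 was 3.44-fold higher in H/R + LITAF cells than in H/R cells, and it was the only one of the 10 genes to pass the test. This is 1 of 10 genes raised, where 3.73% of all genes tested were raised, and 0 of 10 lowered, where 1.15% were lowered. The count of lowered genes was also 0 at an unadjusted p under 0.05 and with DESeq2. Txnrd1 and Osgin1 were also higher in every H/R + LITAF library than in any H/R library, by 1.24-fold and 1.28-fold, without passing. With Srxn1 that is 3 of 10 genes, where 10.6% of all genes tested had groups that did not overlap in this direction. The median log2 fold change over the 10 genes was 0.18, against -0.01 over all genes tested. The other 7 genes overlapped between the groups. Of all genes called in this comparison 76.4% were higher, against 61.0% with library totals alone as the scaling and 53.9% without H/R + LITAF library 1. Of 5 cardiomyocyte markers tested between the vectors 1 rose, Tnnt2, and its part in these differences was not tested.

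Most of these genes were higher in H/R cells with the empty vector than in control cells. Of the 10 genes 9 rose, all but Nfe2l2, where 31.8% of all genes tested rose. The rises ran from 1.51-fold for Gclc to 16.1-fold for Ggct, and in all 9 the 4 H/R libraries lay above the 4 control libraries, where 30.2% of all genes did so. Ggct had only 6 to 7 reads in each control library and passed the filter on low counts only through the groups with H/R. Its folds over control are therefore imprecise, and the next largest rise was 6.19-fold, for Nqo1. The median log2 fold change of the 10 genes was 1.23, against 0.01 over all genes. In H/R + LITAF cells 9 genes, again all but Nfe2l2, rose above control, where 32.0% of all genes rose, with a median log2 fold change of 1.34 against -0.01, and for all 9 the libraries did not overlap, as for 26.4% of all genes. The folds over control were 18.7 for Srxn1, 5.95 for Nqo1, 1.95 for Gclc, 2.26 for Gclm, 1.82 for Gsr, 19.4 for Ggct, 2.84 for Txnrd1, 1.81 for Txn1 and 5.22 for Osgin1. These last 2 comparisons share the control libraries. Muscle markers moved with them: Myog, a factor of muscle differentiation, was at 18.0 to 39.5 CPM in H/R + LITAF libraries, 4.99 to 19.6 CPM in H/R libraries and 1257 to 5730 CPM in control libraries. The summed myoblast markers ran over 500.3 to 564 CPM in H/R + LITAF, 507 to 641 CPM in H/R and 2195 to 6451 CPM in control libraries. Most of the control sum was Myog. Cdh15 was at 398 to 511 CPM in H/R and 446 to 584 CPM in control libraries. Myod1 was at 75.7 to 112 CPM in H/R and 185 to 350 CPM in control libraries. Of the 4 myoblast markers tested 3 fell in H/R cells against control and 1, Des, rose. Of 5 cardiomyocyte markers 4 fell and 1, Nkx2-5, rose, where 31.8% of all genes tested fell and 31.8% rose. The part of this shift in the rises was not tested, and in bulk RNA a change in the cells that express a gene and a change in RNA per cell cannot be told apart.

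**Figure D1:**
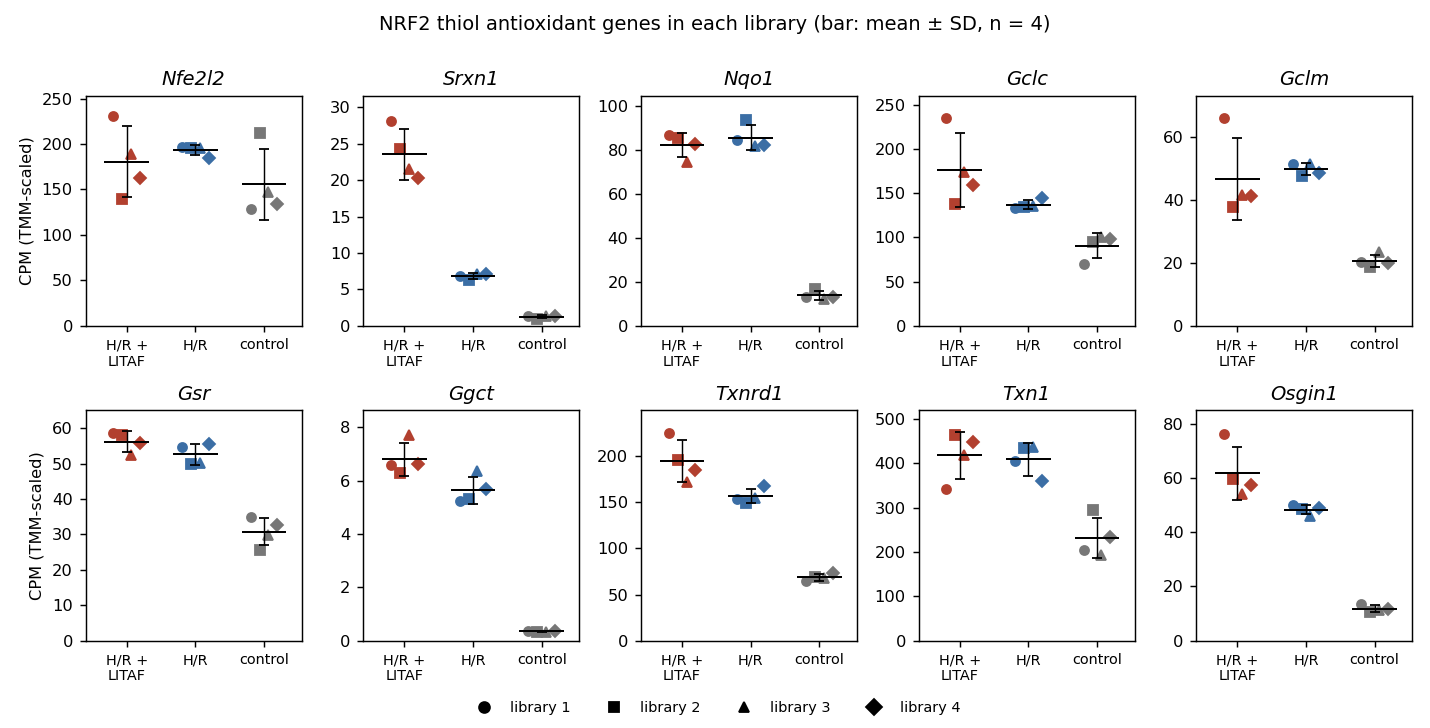
CPM of each of the 10 genes in every library (points), with the mean (horizontal line) and SD (error bar) of each group of 4 libraries, for H/R + LITAF, H/R and control from left to right; each panel has its own linear scale from 0. Srxn1 has 3 separate levels, 23.6, 6.85 and 1.25 CPM, while Nfe2l2 overlaps in all groups.

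Nfe2l2 (ENSRNOG00000001548), the regulator itself, showed no change that passed in any comparison. It measured 231, 139.7, 189.5 and 162 CPM in the 4 H/R + LITAF libraries, 196, 195, 196 and 185 CPM in the H/R libraries and 128, 213, 147 and 134 CPM in the control libraries. The H/R libraries agreed closely, whereas the other groups spread widely and overlapped them. The log2 fold change was -0.10 ± 0.16 for H/R + LITAF over H/R (SE, 95% interval -0.44 to 0.25, adjusted p = 0.791, edgeR quasi-likelihood test). Against control it was 0.31 ± 0.16 for H/R (interval -0.03 to 0.66, adjusted p = 0.101) and 0.22 ± 0.16 for H/R + LITAF (adjusted p = 0.250). The lack of a call against control depended on control library 2, at 213 CPM. Without it H/R was 0.50 above control (adjusted p = 0.00565) and H/R + LITAF was 0.41 above (adjusted p = 0.0187). With that library kept, the H/R difference also passed with upper-quartile scaling, at 0.43 (adjusted p = 0.0193), and with library totals alone, at 0.44 (adjusted p = 0.0251). Those 2 scalings also moved the median of all genes to 0.12 and 0.13, so relative to it Nfe2l2 stood at about the value of the TMM fit.

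The gene with the clearest difference between the vectors was Srxn1 (ENSRNOG00000031167), which codes for sulfiredoxin. This enzyme reduces overoxidised peroxiredoxins back to working form. It measured 28.2, 24.3, 21.6 and 20.3 CPM in the H/R + LITAF libraries, 6.82, 6.33, 7.09 and 7.18 CPM in the H/R libraries and 1.38, 0.889, 1.34 and 1.40 CPM in the control libraries. The 3 groups formed separate steps with wide gaps. Srxn1 was log2 1.78 ± 0.14 above H/R in H/R + LITAF cells (adjusted p = 1.14e-06), and H/R cells were 2.44 ± 0.17 above control (5.44-fold, adjusted p = 3.57e-09). Over both steps H/R + LITAF cells were 18.7-fold above control (log2 4.22 ± 0.17, adjusted p = 5.49e-12). Counts were modest, at 352 to 496 reads per H/R + LITAF library, 111 to 133 per H/R library and 16 to 27 per control library. Leaving out any library kept the difference between the vectors at 1.71 to 1.85.

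Nqo1 (ENSRNOG00000012772), the quinone reductase that passes electrons from NADPH to quinones, was higher in H/R than in control cells and did not differ detectably between the vectors. It measured 86.7, 85.4, 74.3 and 82.4 CPM in the H/R + LITAF libraries, 84.2, 93.6, 81.8 and 82.1 CPM in the H/R libraries and 13.2, 16.9, 12.0 and 13.2 CPM in the control libraries. The vector groups overlapped and both lay far above control. The log2 fold change was -0.06 ± 0.11 between the vectors (95% interval -0.29 to 0.18, adjusted p = 0.820). H/R cells were 6.19-fold above control (log2 2.63 ± 0.12, adjusted p = 2.56e-11) and H/R + LITAF cells 5.95-fold.

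The subunits of glutamate-cysteine ligase, the rate-limiting enzyme of glutathione synthesis, were both higher in H/R than in control cells. Gclc (ENSRNOG00000006302), the catalytic subunit, measured 235, 137, 174 and 159.6 CPM in the H/R + LITAF libraries, 133, 134, 136 and 144 CPM in the H/R libraries and 69.7, 94.5, 99.9 and 98.4 CPM in the control libraries. Library 1 of H/R + LITAF was far above its fellows, and the vector groups overlapped by a single library. Between the vectors Gclc differed by log2 0.37 ± 0.15 (95% interval 0.05 to 0.68, adjusted p = 0.175) and by 0.22 without that library. It was 1.51-fold higher in H/R than in control cells (log2 0.59 ± 0.15, adjusted p = 0.00240).

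Gclm (ENSRNOG00000013409), the modifier subunit that raises the activity of the catalytic one, measured 66.2, 37.9, 41.8 and 41.3 CPM in the H/R + LITAF libraries, 51.4, 47.7, 51.6 and 48.8 CPM in the H/R libraries and 20.3, 18.8, 23.5 and 20.1 CPM in the control libraries. Of the H/R + LITAF libraries 3 lay below all H/R libraries, and library 1 lay above them. The log2 fold change between the vectors was -0.09 ± 0.15 (95% interval -0.41 to 0.22, adjusted p = 0.778) and -0.29 without library 1 (adjusted p = 0.0880). Gclm was 2.41-fold higher in H/R than in control cells (log2 1.27 ± 0.15, adjusted p = 2.01e-06).

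The ratio of the 2 subunits, which cancels the scaling of a library, was computed after their values were seen. Gclc over Gclm counts came to 3.55, 3.62, 4.16 and 3.86 in the H/R + LITAF libraries, 2.58, 2.81, 2.63 and 2.95 in the H/R libraries and 3.43, 5.03, 4.26 and 4.90 in the control libraries. H/R + LITAF did not overlap H/R, and H/R did not overlap control. The ratio was 1.38-fold that of H/R in H/R + LITAF cells, and 0.629 of the control ratio in H/R cells. Each difference had p = 0.0286 by an exact 2-sided permutation test, the smallest p that the 70 splits allow. Adjusted over the 6 ratio tests it was 0.0571, so neither passed. At this smallest p the comparisons of a single pair could not pass, however far apart the groups lay. The outcome therefore does not decide whether the ratios differ. Without any 1 library the difference between the vectors stayed at log2 0.42 to 0.50.

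Gsr (ENSRNOG00000014915) codes for glutathione reductase, which returns oxidised glutathione to its reduced form. It measured 58.5, 58.2, 52.3 and 55.9 CPM in the H/R + LITAF libraries, 54.7, 49.96, 50.3 and 55.6 CPM in the H/R libraries and 34.8, 25.7, 29.9 and 32.8 CPM in the control libraries. The vector groups overlapped, and all 8 of their libraries lay above control. Its log2 fold change was 0.10 ± 0.10 between the vectors (95% interval -0.13 to 0.32, adjusted p = 0.658) and 0.77 ± 0.11 for H/R over control (1.71-fold, adjusted p = 9.15e-06). Ggct (ENSRNOG00000034084) codes for gamma-glutamylcyclotransferase, which breaks down gamma-glutamyl peptides within glutathione turnover. It measured 6.59, 6.28, 7.69 and 6.62 CPM in the H/R + LITAF libraries, 5.22, 5.30, 6.35 and 5.67 CPM in the H/R libraries and 0.357, 0.333, 0.309 and 0.378 CPM in the control libraries. The control counts were only 6 to 7 reads per library, so the size of the step is imprecise. H/R cells were 16.1-fold above control (log2 4.01 ± 0.19, adjusted p = 4.47e-11) and H/R + LITAF cells 19.4-fold. Between the vectors the libraries overlapped and the log2 fold change was 0.27 ± 0.13 (95% interval -0.01 to 0.55, adjusted p = 0.269).

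Txnrd1 (ENSRNOG00000009088), the cytosolic thioredoxin reductase, a selenoprotein, measured 225, 195, 172 and 185 CPM in the H/R + LITAF libraries, 154, 149.7, 155 and 168 CPM in the H/R libraries and 64.5, 68.5, 67.5 and 73.8 CPM in the control libraries. The 3 groups did not overlap, with the narrowest gap, between 172 and 168 CPM, lying between the vectors. The log2 difference between the vectors was 0.31 ± 0.10 (95% interval 0.10 to 0.52, adjusted p = 0.0810). It passed when the 2 vector groups were fitted alone (adjusted p = 0.0460) and with DESeq2 (adjusted p = 0.0260). In the other edgeR fits with all libraries it did not pass (adjusted p up to 0.143, with library totals alone). Nor did it pass in any of the 8 fits without 1 library of these groups (log2 0.26 to 0.37, adjusted p 0.0807 to 0.210). H/R cells were 2.28-fold above control (log2 1.19 ± 0.10, adjusted p = 3.52e-08). RefSeq places Eid3 over Txnrd1, and without stated strand use their reads cannot be told apart. Eid3 measured 4.26, 1.20, 2.37 and 1.67 CPM in the H/R + LITAF libraries and 0.617 to 0.906 CPM in the H/R libraries. Eid3 was itself higher in H/R + LITAF than in H/R cells (log2 1.73 ± 0.36, adjusted p = 0.0103).

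Txn1 (ENSRNOG00000086087), thioredoxin itself, measured 343, 463, 418 and 447 CPM in the H/R + LITAF libraries, 404, 434, 438 and 359 CPM in the H/R libraries and 205, 294, 192 and 235 CPM in the control libraries. The vector groups overlapped, and the highest control library stayed below the lowest of them. The log2 fold change was 0.03 ± 0.13 between the vectors (95% interval -0.25 to 0.31, adjusted p = 0.920) and -0.02 with library totals alone. Txn1 was 1.77-fold higher in H/R than in control cells (log2 0.82 ± 0.13, adjusted p = 5.59e-05). The ratio of Txnrd1 to Txn1 counts, also computed after the values were seen, averaged 0.476 ± 0.121 in H/R + LITAF, 0.387 ± 0.0558 in H/R and 0.303 ± 0.0499 in control libraries (SD, n = 4). H/R + LITAF library 1 reached 0.657 and the other 3 were at 0.411 to 0.422. H/R + LITAF did not overlap control, with p = 0.0286 by the exact permutation test and 0.0571 adjusted. None of the 6 ratio tests passed, and at the smallest p of this test the comparisons of a single pair could not.

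**Figure D2:**
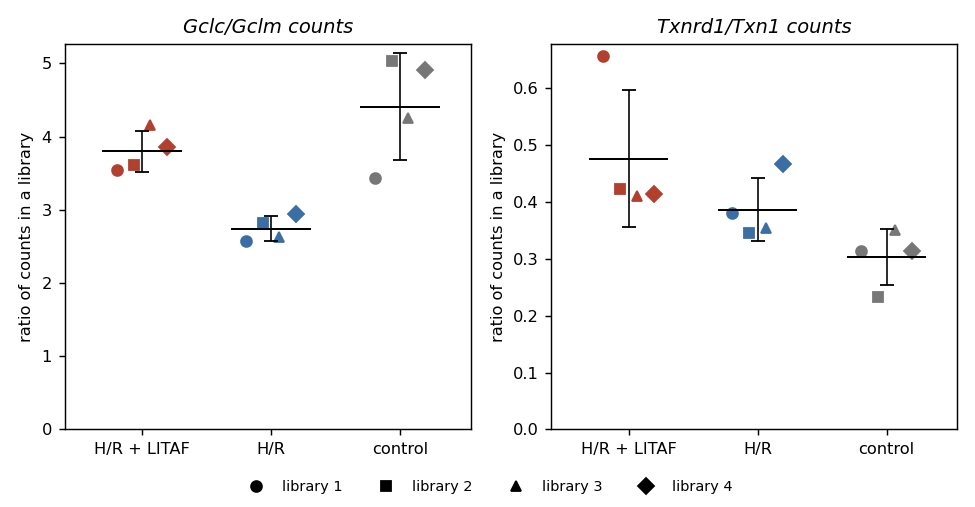
Ratio of counts in each library (points) for Gclc over Gclm and Txnrd1 over Txn1, with H/R + LITAF, H/R and control from left to right and the mean (horizontal line) and SD (error bar) of each group. The Gclc to Gclm ratio averages 3.80, 2.74 and 4.41 in that order.

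Osgin1 (ENSRNOG00000014948), an oxidative stress-induced growth inhibitor, measured 76.1, 59.6, 54.0 and 57.4 CPM in the H/R + LITAF libraries, 49.8, 48.5, 46.0 and 48.9 CPM in the H/R libraries and 13.6, 10.7, 11.4 and 11.6 CPM in the control libraries. The groups did not overlap, and library 1 was again the highest of H/R + LITAF. The log2 difference between the vectors was 0.35 ± 0.12 (95% interval 0.11 to 0.60, adjusted p = 0.0908), which passed with DESeq2 (adjusted p = 0.0424). In the other edgeR fits with all libraries it did not pass (adjusted p up to 0.146, with library totals alone). Nor did it pass in any of the 8 fits without 1 library of these groups (log2 0.26 to 0.41, adjusted p 0.0926 to 0.236). Osgin1 was 4.08-fold higher in H/R than in control cells (log2 2.03 ± 0.12, adjusted p = 7.33e-10).

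**Figure D3:**
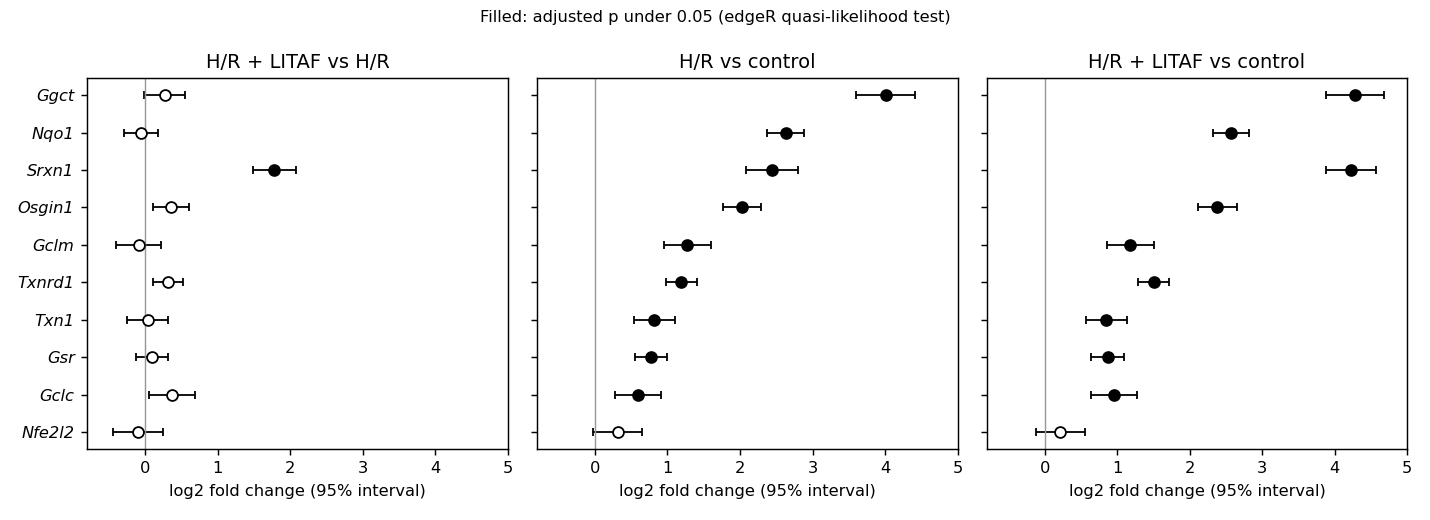
Log2 fold change with its 95% interval for the 10 genes in the 3 comparisons, filled where the adjusted p passed 0.05. Between the vectors only Srxn1, at 1.78, is filled, and against control all but Nfe2l2 are.

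**Figure D4:**
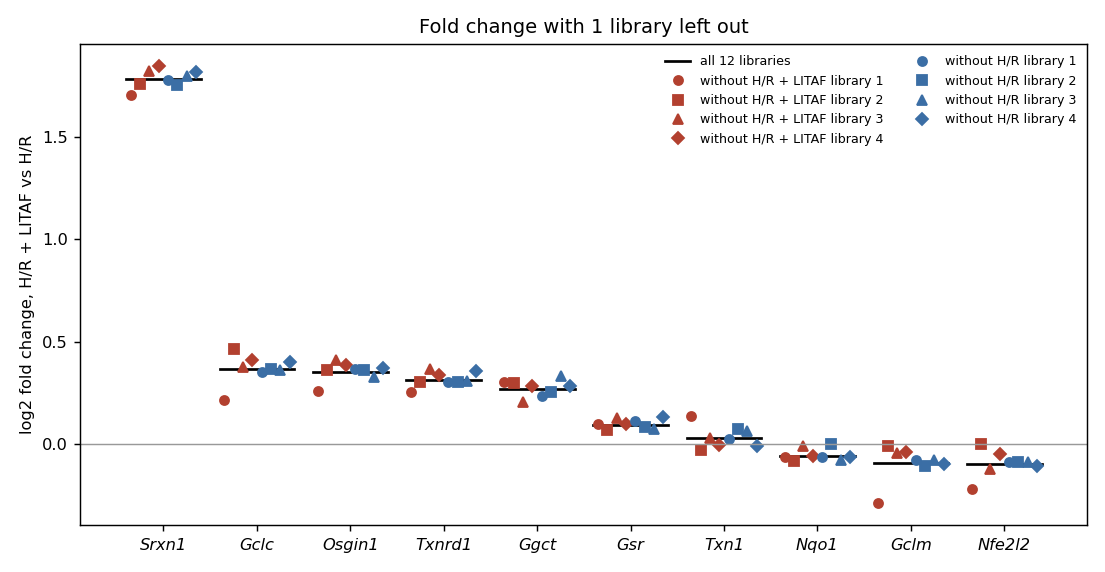
Log2 fold change of H/R + LITAF over H/R for each of the 10 genes with all libraries (line) and with each of the 8 libraries of these groups left out in turn (points). Srxn1 stays at 1.71 to 1.85, while Gclm spans -0.29 to -0.01 and Gclc 0.22 to 0.46.

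The rest of the pathway was described with 7 lists of other NRF2-related genes, of which 105 genes were tested. These lists too were chosen with earlier results of these data known, so their counts are only a description. Between the vectors 8 of them rose (7.62%, against 3.73% of all genes tested) and 1 fell (0.952%, against 1.15%), and the median log2 fold change was 0.09. Among 11 regulators 2 rose. Bach1, a repressor that competes with NRF2 for AREs, measured 131, 81.9, 101 and 94.2 CPM in the H/R + LITAF libraries and 62.3 to 68.4 CPM in the H/R libraries (log2 0.62 ± 0.15, adjusted p = 0.0210). Maff, a small MAF partner of NRF2 and BACH1, averaged 140.3 ± 10.3 CPM in H/R + LITAF and 99.6 ± 3.29 CPM in H/R cells (log2 0.49 ± 0.10, adjusted p = 0.00858). Keap1 measured 32.7 ± 2.36 CPM in H/R + LITAF and 33.3 ± 1.44 CPM in H/R cells (log2 -0.02 ± 0.11, adjusted p = 0.927). The Bach1 call was lost without H/R library 1, without H/R library 3 or without H/R + LITAF library 3 (adjusted p up to 0.0642).

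Of 31 other glutathione genes 3 rose between the vectors and 0 fell, where 3.73% of all genes tested rose and 1.15% fell. DESeq2 called 5 rises, with Cth and Gstm5 added, and 0 falls, and 1 gene was lower at an unadjusted p under 0.05. Gstp1, a glutathione transferase, was 1.49-fold higher in H/R + LITAF cells (354 ± 54.1 CPM, against 237 ± 25.9 CPM in H/R cells, adjusted p = 0.00990). Chac1, which degrades glutathione, was 1.34-fold higher (222 ± 7.31 CPM, against 166 ± 10.4 CPM in H/R cells, adjusted p = 0.0266). That call was lost in 6 of the 8 fits without 1 library of the 2 groups, all but those without H/R + LITAF library 1 or H/R library 4 (adjusted p up to 0.107). The third was Gstm2, named after its values were seen, at 1.44 ± 0.198 CPM in H/R + LITAF and 0.620 ± 0.193 CPM in H/R cells, which lost its call in 5 of those 8 fits (without H/R library 3 or 4, or H/R + LITAF library 2, 3 or 4). Of 21 other thioredoxin genes 1 rose, Txnip (4.76%, near the share of all genes). DESeq2 also called Sesn2 (log2 0.51, adjusted p = 0.0208, against 0.0638 with edgeR). Txnip, which binds and inhibits thioredoxin, averaged 60.9 ± 7.38 CPM in H/R + LITAF and 30.1 ± 5.46 CPM in H/R cells (2.02-fold, adjusted p = 0.000821). Of the 11 NADPH genes and the 4 superoxide and peroxide enzymes, 0 passed with edgeR, with DESeq2 or at an unadjusted p under 0.05. At the shares of all genes, lists this small would give few calls or none. Of 20 quinone and electrophile genes 1 fell, Aldh3a1, also named after its values were seen, at 0.484 ± 0.249 CPM in H/R + LITAF and 1.66 ± 0.450 CPM in H/R cells. Of 7 haem and iron genes 2 rose. Hmox1, haem oxygenase, averaged 2719.8 ± 347 CPM in H/R + LITAF and 1873 ± 128 CPM in H/R cells (log2 0.54 ± 0.12, adjusted p = 0.0138), a call lost without H/R library 1 or 3 (adjusted p up to 0.0627). Ftl1, a ferritin chain, was 1.35-fold higher (adjusted p = 0.0267), a call lost in 6 of the 8 fits, all but those without H/R + LITAF library 1 or 3.

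In H/R cells against control, 59 of the 105 genes rose and 18 fell, with a median log2 fold change of 0.44, against 31.8% of all genes in each direction and a median of 0.01. Hmox1 rose 27.0-fold (1873 ± 128 CPM in H/R, 69.5 ± 9.51 CPM in control cells). Keap1 rose 1.88-fold (33.3 ± 1.44 CPM in H/R, 17.7 ± 2.32 CPM in control cells, adjusted p = 2.62e-06), while Bach1 was at log2 0.20 ± 0.15 (adjusted p = 0.256). Among the 11 regulators 5 rose and 1 fell. Sqstm1, which can sequester KEAP1, rose 4.12-fold and Maff 3.57-fold, and Palb2, a DNA repair protein that can bind KEAP1, fell by 2.10 on the log2 scale. The 31 glutathione genes split into 16 that rose and 6 that fell. Slc3a2, the heavy chain of the cystine transporter, rose 6.43-fold, and glutaredoxin, Glrx, fell by 3.26 on the log2 scale (14.4 ± 1.92 CPM in H/R, 138 ± 40.5 CPM in control cells). Oplah, the oxoprolinase that follows GGCT in the gamma-glutamyl cycle, fell by 1.45.

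The 21 thioredoxin genes had 13 rises and 1 fall in H/R cells against control, where 31.8% of all genes rose and 31.8% fell. The mitochondrial and peroxisomal peroxiredoxin Prdx5 rose 3.79-fold and Msrb1, a methionine sulfoxide reductase, 1.79-fold, and the sestrin Sesn1 fell by 0.58 on the log2 scale. Of 11 NADPH genes 8 rose and 2 fell. Mthfd2 (2.11-fold) and Tkt (2.07-fold), of the folate and pentose phosphate routes, rose, whereas Nnt, the mitochondrial transhydrogenase, fell by 1.52 and Idh2, a mitochondrial isocitrate dehydrogenase, fell by 0.73 on the log2 scale. Of 20 quinone and electrophile genes 10 rose (50%) and 6 fell (30%), and the falls were near the share over all genes. Ptgr1, a reductase of prostaglandins and reactive aldehydes, rose 3.40-fold and the aldose reductase Akr1b1 2.71-fold, and the epoxide hydrolase Ephx1 fell by 3.12 and the exporter Abcc1 fell by 0.91. Haem and iron genes had 5 rises and 1 fall of 7, led by Hmox1 and Ftl1 (5.31-fold), and ferrochelatase, Fech, fell by 0.83. Of the 4 superoxide and peroxide enzymes Sod1 (2.07-fold) and catalase, Cat (1.83-fold), rose and the mitochondrial dismutase Sod2 fell by 0.49. In H/R + LITAF cells against control 65 of the 105 rose and 19 fell, where 32.0% of all genes rose and 32.6% fell, with a median of 0.52 against -0.01 over all genes. There Hmox1 rose 39.2-fold, Maff 5.03-fold, Sqstm1 5.00-fold, Keap1 1.85-fold, Bach1 1.76-fold (adjusted p = 0.000131) and Gstp1 3.95-fold, whereas Palb2 fell by 2.60, Glrx fell by 3.08 and Ephx1 fell by 3.47 on the log2 scale. Slc3a2 rose 7.44-fold, Ftl1 7.18-fold, Prdx5 4.38-fold, Ptgr1 3.16-fold, Akr1b1 2.82-fold, Mthfd2 2.43-fold, the sestrin Sesn2 2.31-fold, Tkt 2.11-fold, Sod1 1.95-fold and Cat 1.55-fold. Oplah fell by 1.08, Nnt fell by 1.59 and the exporter Abcc3 fell by 0.93. Smaller falls were those of Fech (log2 -0.67), Idh2 (-0.62), Sod2 (-0.43) and Sesn1 (-0.43), and the Sesn1 call was lost without H/R + LITAF library 3 (adjusted p = 0.0505).

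**Figure D5:**
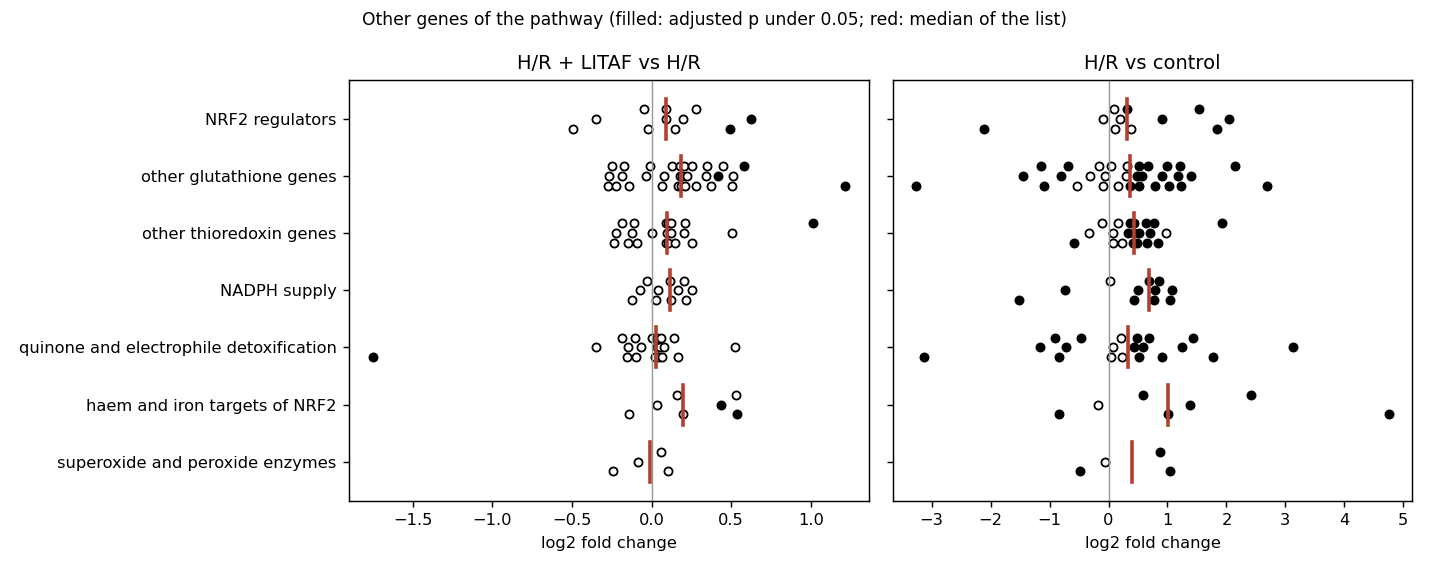
Log2 fold change of each tested gene of the 7 other NRF2-related lists for H/R + LITAF over H/R (left) and H/R over control (right), filled where the adjusted p passed 0.05, with the median of each list in red. Between the vectors 9 of 105 genes are filled, and 77 in H/R over control.

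The genes whose pattern was most like that of a member were found as the smallest root mean square distance of centred log2 CPM over the 12 libraries. For Nfe2l2 they were Canx (0.11), Slc30a7 (0.11) and Zfp326 (0.12), and the nearest of the other members was Gclc at 0.35, against a median of 0.42 over all genes. For Srxn1 they included Dusp5 (0.31) and Pygm (0.41), and the nearest other member was Ggct at 0.69, against a median of 1.72. Dusp5, a phosphatase of the ERK kinases, averaged 81.7 CPM in H/R + LITAF, 28.9 CPM in H/R and 6.43 CPM in control libraries. Dusp5 was the nearest to Srxn1 of all genes tested, so the greater distance of the other 9 genes follows from that ranking.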

How the data were processed

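RNA was sequenced from 12 libraries of H9C2 cells. The authors deposited estimated counts per gene, which the file headers describe as raw and at gene level, not normalized before deposit, in a table of 16204 rows, all marked protein-coding. Their unit was checked from the values, of which 11.6 to 12.3% were not whole numbers in H/R + LITAF, 11.1 to 12.0% in H/R and 2.79 to 3.34% in control columns. All 120 values of the 10 genes were whole. The submitters' processing notes name DESeq2 and edgeR. For the aligner, quantifier, build, annotation and strand, nothing is given in the sources used here. Counts of paralogs and overlapping genes are therefore uncertain. Estimated counts were rounded. IDs with differing rows (72, none of them a gene described here) were left out, and identical repeats (56) were kept once.

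All 12 libraries entered 1 edgeR quasi-likelihood fit (glmQLFit, robust, edgeR 4.0.16, limma 3.58.1, R 4.3.3) with TMM scaling after filterByExpr, 2-sided, with Benjamini-Hochberg adjustment over 11398 genes at 0.05. SE is the size of the log2 fold change over the square root of F. Alternatives were DESeq2 1.42.0, other scalings, no filter, the first of differing rows kept, an adjusted p under 0.01, 2 groups alone, a replicate block, and each library left out. Deviations of same-numbered H/R and control libraries correlated at 0.302 to 0.568, and those of different numbers at -0.27 to -0.03. The labels do not say what a shared number marks, and what links those libraries was not tested. The main fit did not use the numbers, and the replicate block did.

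The members and lists were chosen with earlier results of these data known. Named pathway genes were up to 2 rises and 2 falls per list and comparison, that passed the test, averaged log2 CPM 2 or more and had CPM that did not overlap, plus Keap1, Bach1 and Hmox1. Of 114 listed genes 105 were tested. Mafg, Dpp3, Ggt5, Gstk1 and Ugt1a6 were not analysed here. A gene near Srxn1 in pattern is not reported here.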

Additional observations from a re-analysis of the deposited data

Results flagged for a closer look

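Of 39 groups of 4 libraries examined, 4 had 1 library far from the other 3, by a gap past the limit of Dixon's test at the 95% level. Chance alone gives about 1 in 20 such groups. Gclm was at 66.2 CPM in H/R + LITAF library 1, with the other 3 at 37.9 to 41.8 CPM. The ratio of Txnrd1 to Txn1 counts was 0.657 in the same library, with the other 3 at 0.411 to 0.422. Nfe2l2 was at 185 CPM in H/R library 4, with the other 3 at 195 to 196 CPM. Srxn1 was at 0.889 CPM in control library 2, with the nearest of the others at 1.34 CPM and the highest at 1.40 CPM.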

How the results depend on the processing

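Of the fold changes of the 10 genes under alternatives that keep all libraries, 234 kept their direction and their side of the threshold, 5 passed only there and 1 reversed, Txn1 between the vectors with library totals alone, at log2 -0.017. The number of the 10 genes called between the vectors was 3 with DESeq2 and 2 with the 2 groups alone, against 1. All genes called between the vectors were 556, against 902 with DESeq2, 1098 with the 2 groups alone, 873 with the replicate block and 182 at an adjusted p under 0.01. The pathway genes called were 14 with the 2 groups alone and 3 at 0.01, against 9. The replicate block called 7564 genes in H/R over control, against 7248, and changed no call of the 10 genes in any comparison. For H/R + LITAF and H/R the same numbers correlated at 0.05 to 0.20 and different numbers at -0.27 to 0.23. Not every library correlated best with its own number. Values this close cannot decide whether those samples are paired.

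Leaving out 1 library, the genes called between the vectors ran from 244 (without H/R library 3, or without H/R + LITAF library 4) to 1285 (without H/R + LITAF library 1), with 272, 279 and 365 without H/R library 1, 2 or 4 and 322 without H/R + LITAF library 3, and the pathway genes called from 4 to 13. H/R over control gave 6768 to 7584 genes and H/R + LITAF over control 6854 to 7586. Of the 10 genes 1 was called between the vectors in every such fit and 9 or 10 in the other comparisons. Fold changes between the vectors that crossed 0 were Nfe2l2 (-0.22 to 0.0024), Nqo1 (-0.082 to 0.0019), Txn1 (-0.029 to 0.14) and Keap1 (-0.079 to 0.014). The causes were not tested. Depth limits Ggct and Srxn1 in control libraries, with 6 to 7 and 16 to 27 reads.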
